A study of Mus musculus with 6 samples.

Results

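The COMPASS family complexes that methylate lysine 4 of histone H3, together with the deubiquitinase USP7, were examined at the transcript level in mouse embryonic stem cells. The genes were chosen by symbol: Kmt2a, Kmt2b, Kmt2d, Setd1a, Wdr5, Ash2l, Rbbp5, Dpy30, Men1 and Usp7, MLL/SET1 complex subunits and USP7 that have been described as partners of the transcription factor BACH1. All 10 had a row in the deposited table of 18518 gene symbols, and all 10 averaged 1 FPKM or more across the 6 libraries, the limit for testing. FPKM counts sequenced fragments per transcript length and per library size.

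The libraries were 3 from BACH1-KO cells and 3 from WT cells, both of the established line E14Tg2A. Both genotypes were kept for 2 days in medium with 10% fetal bovine serum and 200 units/ml mouse leukemia inhibitory factor (LIF), which sustains self-renewal in this culture. The knockout was made by CRISPR/Cas9 from a transiently transfected LentiCRISPR V2 plasmid, with puromycin selection and sorting of single-cell clones. The labels do not say how many clones the 3 BACH1-KO libraries represent, nor that replicates are separate cultures, so the spread behind the p-values could be technical only. The series addresses how BACH1 bears on self-renewal and differentiation.

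Methylation of lysine 4 of histone H3 marks active and poised promoters and enhancers. Each COMPASS complex has a catalytic SET domain protein and a shared core of WDR5, RBBP5, ASH2L and DPY30, called WRAD, which the enzyme needs for full activity. KMT2A and KMT2B work with menin, the product of Men1, at developmental promoters, KMT2D acts mainly at enhancers, and SETD1A with its paralog SETD1B places much of the trimethylation at active promoters. USP7 removes ubiquitin from nuclear proteins, among them MDM2, p53, UHRF1 and DNMT1, and so stabilises them.

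The libraries were alike in the number of genes above 0 within a genotype, 17276 to 17455 in BACH1-KO and 16047 to 16159 in WT. Bach1 transcript was present in both genotypes, at 10.5, 10.4 and 10.4 FPKM in the BACH1-KO libraries and 7.97, 8.39 and 8.47 FPKM in the WT libraries, which does not show whether the coding sequence was edited. The 12 embryonic stem cell markers were all expressed, and 9 fell and 3 rose (Fbxo15, Sall4 and Nanog). Their sums of 7053 to 7302 FPKM in BACH1-KO and 10740 to 11520 FPKM in WT are mostly Dppa5a, at 4284 ± 134 FPKM in BACH1-KO and 6606 ± 463 FPKM in WT. Among the 10 fibroblast feeder markers, Thy1 and Pdgfrb were tested and fell, and they carry most of the list's sums of 13.5 to 14.0 FPKM in BACH1-KO and 23.9 to 25.0 FPKM in WT. The other feeder markers were under 1 FPKM in mean, and 6 of the 10, among them Dcn, Col1a2 and Col3a1, were higher in every BACH1-KO library than in any WT library. Of these 6, Col3a1 and Lum were listed at 0 in every WT library. All 6 averaged under 0.5 FPKM over the libraries, and levels that low were generally higher in BACH1-KO. The 5182 genes under this mean had library medians of 0.0978 to 0.099 FPKM in BACH1-KO and 0.0217 to 0.0253 FPKM in WT. The 8 primitive endoderm markers summed to 6.93 to 8.04 FPKM in BACH1-KO and 19.1 to 20.4 FPKM in WT. Most of this difference is Col4a1 and Lama1, with means of 2.80 and 0.789 FPKM in BACH1-KO, against 10.4 and 4.68 FPKM in WT. Dab2, Gata6 and Pdgfra were also lower in every BACH1-KO library. Gata4 was higher in every BACH1-KO library without passing the test, and Sox17 and Sox7 overlapped. Of 16 hepatocyte markers, 15 were in the table and all 15 were higher in BACH1-KO, with sums of 885.2 to 915.9 FPKM in BACH1-KO, which is 0.116% to 0.120% of the library, and 1.44 to 7.30 FPKM in WT. The part of these other cell types in the results below was not tested.

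Transcripts of 9 of the 10 genes fell in the BACH1-KO cells, 0 rose, and Kmt2a did not pass the test. In the limma fit over all genes, 39.7% of the 12187 tested genes were lower in BACH1-KO with an adjusted p under 0.05 and 37.3% were higher, so that 77% were called in either direction. All 10 genes had every BACH1-KO library below every WT library, a pattern shown by 40.9% of all tested genes. The median log2 fold change of the 10 genes was -0.36, against -0.01 for all tested genes. Each log2 fold change is the BACH1-KO mean minus the WT mean of log2(FPKM + 1), and low genes appear to change less on it than they do in FPKM. In bulk RNA, fewer cells of a type and less RNA per cell cannot be told apart.

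**Figure D1:**
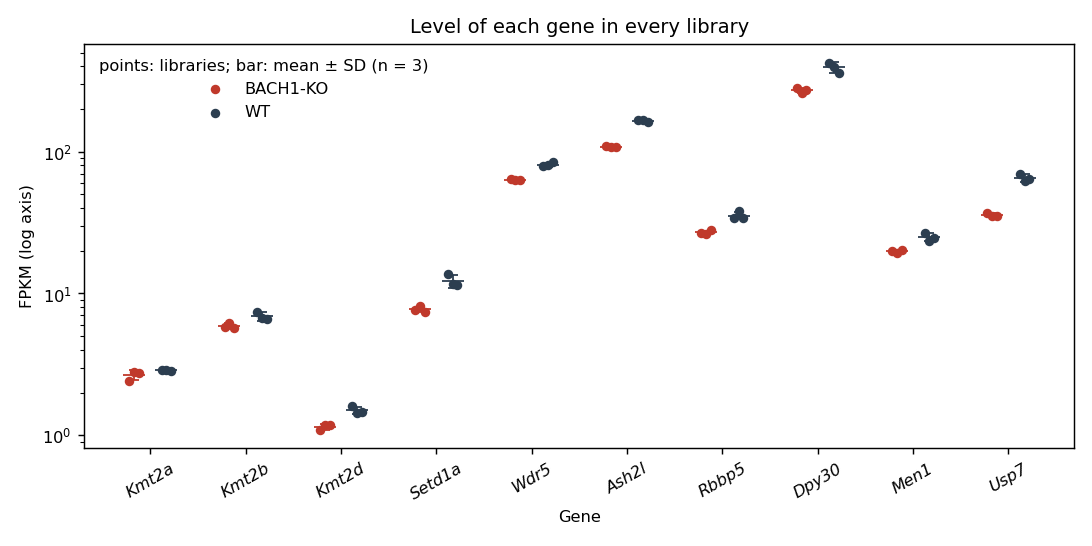
FPKM on a log axis for each of the 10 genes, with a point for each library and the mean ± SD (n = 3) of BACH1-KO and WT. Every BACH1-KO point lies below the WT points of the same gene, and the order of the genes by mean level is the same in both genotypes.

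The order of the 10 genes by mean FPKM was the same in both genotypes. Dpy30 was the most abundant transcript, at 271 ± 11.2 FPKM in BACH1-KO and 395 ± 32.4 FPKM in WT (SD, n = 3 each). Ash2l, Wdr5, Usp7, Rbbp5, Men1, Setd1a, Kmt2b and Kmt2a followed in that order, and Kmt2d was the lowest, at 1.15 ± 0.0524 FPKM in BACH1-KO and 1.501 ± 0.0854 FPKM in WT. No neighbouring pair in this order had overlapping libraries within a genotype. The scaffold subunits were therefore far above the enzymes per length of transcript: the 4 WRAD transcripts summed to 470 ± 12.4 FPKM in BACH1-KO and 677 ± 32.4 FPKM in WT, and the 4 methyltransferase transcripts to 17.4 ± 0.729 FPKM in BACH1-KO and 23.5 ± 1.81 FPKM in WT. The sums in BACH1-KO were 69.4% of WT for WRAD and 74.1% of WT for the methyltransferases. Dpy30 alone made up 57.7% of the WRAD sum in BACH1-KO and 58.3% in WT, so the sum mostly follows Dpy30. Taken singly, Dpy30 was at 68.7% of WT, Ash2l at 65.4%, Wdr5 at 78.2% and Rbbp5 at 76.2%.

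Usp7 showed the largest change of the 10. It lies on the minus strand of chromosome 16 (mm10, 8689595 to 8792308) with 32 exons and encodes 1143 residues. Its level was 37.1, 35.0 and 35.1 FPKM in the BACH1-KO libraries, against 69.9, 62.1 and 64.0 FPKM in the WT libraries. The 2 sets of libraries were far apart, and the BACH1-KO mean was 54.7% of the WT mean. The log2 fold change was -0.85 (SE 0.05, 95% interval -0.97 to -0.74, limma adjusted p = 1.59e-06), and 6.24% of all tested genes had a lower one. Tested against a fold change of 1.5, Usp7 was the only one of the 10 that passed (adjusted p = 0.00286), where 8.16% of all tested genes passed as lower and 10.9% as higher.

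Among the shared core subunits, Ash2l fell the most. Ash2l (chromosome 8, 25815996 to 25847694, minus strand) encodes the subunit that together with RBBP5 contacts and activates the SET domain. Its level was 109, 108 and 107 FPKM in the BACH1-KO libraries, against 168, 166 and 163 FPKM in the WT libraries. The libraries of each genotype lay within a few percent of each other, with a coefficient of variation of 0.934% in BACH1-KO and 1.47% in WT, and the log2 fold change was -0.61 (limma adjusted p = 4.37e-07, SE 0.03).

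Dpy30 (chromosome 17, 74299474 to 74323944, minus strand) encodes a protein of 99 residues that binds ASH2L as a dimer, and its annotated transcript of 734 bases is the shortest of the 10. It had 282, 259 and 272 FPKM in the BACH1-KO libraries, against 426, 397 and 361 FPKM in the WT libraries. The WT libraries were more spread than the BACH1-KO libraries, yet the lowest WT value was above every BACH1-KO value (log2 fold change -0.54, SE 0.06, limma adjusted p = 6.62e-05).

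Wdr5 (chromosome 2, 27515157 to 27536535, plus strand), the WD40 repeat protein that docks onto the enzyme, fell less. It had 64.1, 63.1 and 62.7 FPKM in the BACH1-KO libraries, against 78.8, 80.1 and 84.0 FPKM in the WT libraries (log2 fold change -0.35, SE 0.03, limma adjusted p = 3.06e-05). Rbbp5 (chromosome 1, 132477365 to 132505659, plus strand), the other WD40 subunit, had 26.9, 26.3 and 27.8 FPKM in the BACH1-KO libraries, against 34.3, 37.9 and 34.2 FPKM in the WT libraries (log2 fold change -0.38, SE 0.05, limma adjusted p = 1.59e-04). Both genes were at about the same share of their WT level, 78.2% for Wdr5 and 76.2% for Rbbp5.

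Men1, a tumour suppressor gene (chromosome 19, 6334979 to 6340891, plus strand), encodes menin, which tethers KMT2A and KMT2B to chromatin. It had 19.9, 19.2 and 20.3 FPKM in the BACH1-KO libraries, against 26.7, 23.5 and 24.6 FPKM in the WT libraries. The groups did not overlap, and the log2 fold change was -0.32 (limma adjusted p = 7.53e-04, SE 0.05).

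The 4 methyltransferase genes differed in the size of their fold change. Setd1a (chromosome 7, 127776670 to 127800122, plus strand) fell the most of the 4, to 7.63, 8.11 and 7.44 FPKM in the BACH1-KO libraries, against 13.7, 11.6 and 11.5 FPKM in the WT libraries. Its log2 fold change was -0.60 (limma adjusted p = 1.18e-04, SE 0.07). The first WT column was the highest for Setd1a, and without it the call was kept. Setd1a overlaps Gm49388 on the same strand and 9430064I24Rik on the other, neither of which has a row in the table, and whether counting used strand is not given in the sources used here.

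Kmt2b (chromosome 7, 30568858 to 30588726, minus strand), the enzyme best known for bivalent promoters in embryonic stem cells, had 5.83, 6.17 and 5.66 FPKM in the BACH1-KO libraries, against 7.46, 6.70 and 6.57 FPKM in the WT libraries. The groups were close without overlapping, and the log2 fold change was -0.20 (limma adjusted p = 0.0221, SE 0.06). The call was lost without the first WT column, the first BACH1-KO column or the last BACH1-KO column, and after median-of-ratios scaling (adjusted p = 0.0585) or rescaling to equal summed FPKM (adjusted p = 0.0872), with 0.00258 to 0.0872 over the alternatives that test against no change.

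Kmt2d (chromosome 15, 98831669 to 98871204, minus strand), the enhancer enzyme of 5588 residues, had 1.09, 1.18 and 1.18 FPKM in the BACH1-KO libraries, against 1.60, 1.44 and 1.46 FPKM in the WT libraries. The BACH1-KO mean was 76.5% of the WT mean, and the log2 fold change was -0.22 with a pseudocount of 1 (SE 0.08, limma adjusted p = 0.0278), -0.36 with a pseudocount of 0.1 and -0.51 after quantile normalization. The call was lost without any of 5 columns, the first and last WT and each BACH1-KO, at adjusted p of 0.0502 to 0.0744. It was also lost with equal summed FPKM (adjusted p = 0.059, with 3.72e-04 to 0.0744 over the same alternatives).

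Kmt2a (chromosome 9, 44803355 to 44881296, minus strand), the founding MLL gene, was the one that did not pass. It had 2.43, 2.81 and 2.76 FPKM in the BACH1-KO libraries, against 2.87, 2.91 and 2.86 FPKM in the WT libraries. The WT libraries were nearly equal, the first BACH1-KO column was the lowest of the 6, and the other 2 BACH1-KO columns lay just under WT. The log2 fold change was -0.08 (SE 0.07, 95% interval -0.25 to 0.08, limma adjusted p = 0.300). Among the alternatives only quantile normalization gave a call (-0.27 on the log2 scale, adjusted p = 0.00839), and the others that test against no change gave adjusted p up to 0.667. The annotated antisense gene AC061963.1 overlaps its start and has no row in the table.

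**Figure D2:**
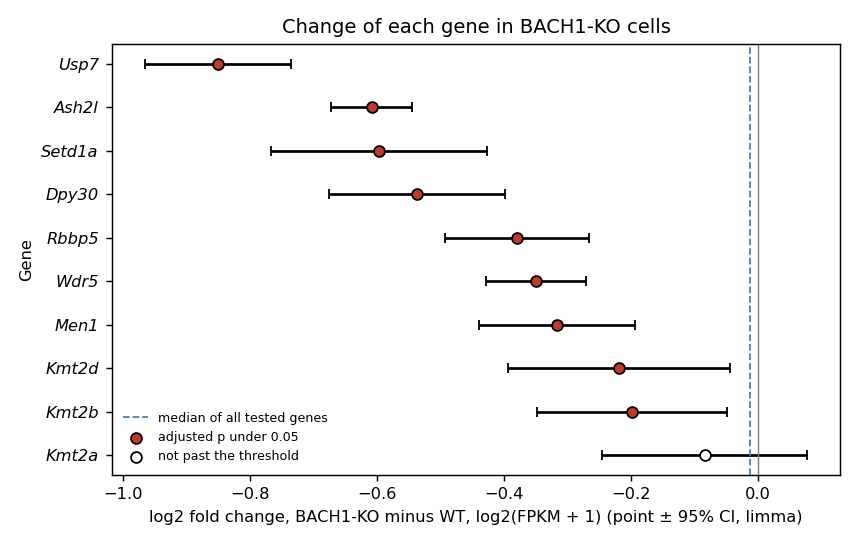
Log2 fold change (BACH1-KO minus WT, log2(FPKM + 1)) with its 95% interval from limma for each of the 10 genes. Usp7 lies lowest at -0.85, and the interval of Kmt2a, -0.25 to 0.08, spans 0.

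For each gene taken alone, an exact two-sided permutation test of the 6 values returned p = 0.1, and a design of 3 against 3 cannot go lower. No member turned to a higher level in BACH1-KO under any of the alternative filters, scalings or left-out libraries, and the number called lower was 7 to 10 under those that test against no change.

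Ratios between genes within a library do not depend on how the library was scaled, and they are given as descriptions. The WRAD sum was 28.4, 25.0 and 27.6 times the methyltransferase sum in the BACH1-KO libraries, and 27.6, 30.1 and 28.7 times in the WT libraries, with overlapping values. Among the 4 methyltransferases of this sum the balance moved away from Setd1a. The sum leaves out Kmt2c and Setd1b. Kmt2c, named after its values were seen, was at 57.0% of WT, beside 63.1% for Setd1a, so a fall of this size was not particular to Setd1a. The ratio of Setd1a to Kmt2b was 1.31 in each BACH1-KO library, against 1.83, 1.73 and 1.75 in the WT libraries. Setd1a made up 44.9%, 44.4% and 43.7% of the FPKM of these 4 in the BACH1-KO libraries, and 53.4%, 51.2% and 51.3% in the WT libraries.

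Inside WRAD, the ratio of Ash2l to Rbbp5 was 4.06, 4.11 and 3.85 in the BACH1-KO libraries, against 4.88, 4.39 and 4.76 in the WT libraries, which did not overlap. The ratio of Dpy30 to Rbbp5 was 10.5, 9.86 and 9.79 in the BACH1-KO libraries and 12.4, 10.5 and 10.6 in the WT libraries, with overlapping values. Usp7 was low even beside these genes: its level was 0.0769, 0.0765 and 0.0748 of the WRAD sum in the BACH1-KO libraries, against 0.0989, 0.0911 and 0.0996 in the WT libraries. The ratio of Men1 to the sum of Kmt2a and Kmt2b was 2.41, 2.13 and 2.41 in the BACH1-KO libraries and 2.58, 2.44 and 2.61 in the WT libraries.

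**Figure D3:**
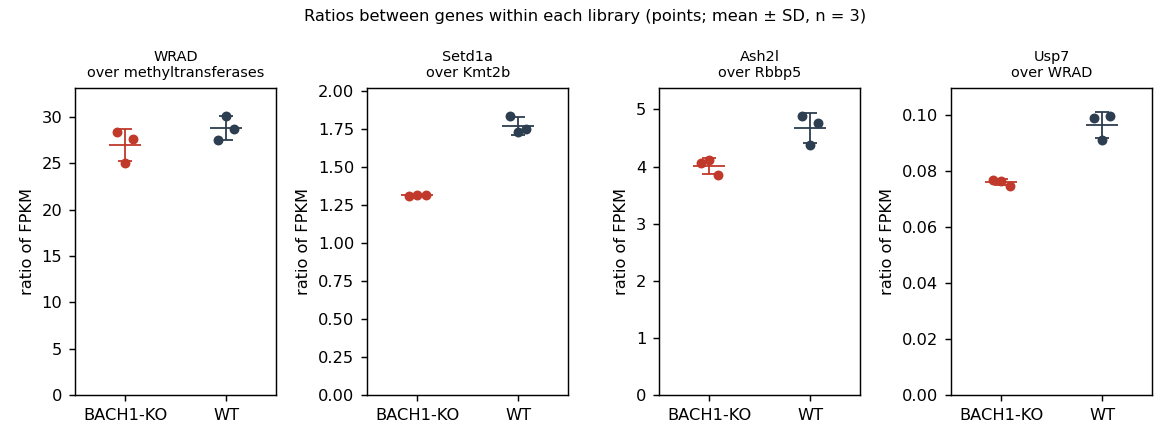
Ratios of FPKM within each library, from 0, for the WRAD sum over the methyltransferase sum, Setd1a over Kmt2b, Ash2l over Rbbp5 and Usp7 over the WRAD sum (points are libraries, bars are mean ± SD, n = 3). The first ratio overlaps between genotypes, and the other 3 are lower in every BACH1-KO library than in any WT library.

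Promoter sequences were looked at because these genes moved in 1 direction. RefSeq (GRCm38.p6, the mm10 assembly) gave windows from 250 bases before to 50 bases after a start for 8 of the 10 genes, 13 windows in all. Kmt2b and Ash2l had no window. The windows held 1 to 63 CpG dinucleotides, against a median of 7 over all 32851 windows of the table. The BACH and AP-1 core TGAGTCA, searched like the others on both strands, was in 0 of the 8 genes and in 5.20% of all windows. The ETS motif CCGGAAG and the MYC E-box CACGTG were also in 0 of the 8, and in 8.86% and 7.15% of all windows. At shares this low, a count of 0 among 8 genes does not set them apart from all windows. The GC box GGGCGG of SP1 was in 6 of the 8 genes and in 35.7% of all windows, the CCAAT box in 3 and in 37.4%, and the STAT motif TTCNNNGAA and the YY1 core ATGGCG in 1 each and in 8.30% and 8.93%. The motif of nuclear respiratory factor 1, written with any base at its middle, was in Wdr5 and Dpy30 and in 4.60% of all windows. Shares of windows and counts of genes are not the same measure, since Dpy30 and Men1 have several windows. A match of letters is not a bound site. Usp7 is shown for its fall and its CpG content, and Wdr5 and Dpy30 for the shared motif. Capitals mark any of the motifs named here, and the 10-letter runs GCGCACGCGC and GCGCAGGCGC are the nuclear respiratory factor 1 matches.
Usp7, chr16:8738293-8738592, minus strand: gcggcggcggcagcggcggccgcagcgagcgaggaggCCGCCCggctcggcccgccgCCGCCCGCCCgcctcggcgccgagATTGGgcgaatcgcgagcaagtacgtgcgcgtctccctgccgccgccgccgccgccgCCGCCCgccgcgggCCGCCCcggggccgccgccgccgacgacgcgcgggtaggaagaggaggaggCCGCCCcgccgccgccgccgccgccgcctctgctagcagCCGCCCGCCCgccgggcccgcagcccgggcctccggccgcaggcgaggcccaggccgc
Wdr5, chr2:27514897-27515196, plus strand: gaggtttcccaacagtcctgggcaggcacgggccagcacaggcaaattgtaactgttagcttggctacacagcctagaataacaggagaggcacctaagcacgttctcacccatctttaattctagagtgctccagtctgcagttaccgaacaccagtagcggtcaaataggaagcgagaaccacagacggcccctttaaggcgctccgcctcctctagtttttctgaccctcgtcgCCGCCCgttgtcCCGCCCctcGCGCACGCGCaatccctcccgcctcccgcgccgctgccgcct
Dpy30, chr17:74316162-74316461, minus strand: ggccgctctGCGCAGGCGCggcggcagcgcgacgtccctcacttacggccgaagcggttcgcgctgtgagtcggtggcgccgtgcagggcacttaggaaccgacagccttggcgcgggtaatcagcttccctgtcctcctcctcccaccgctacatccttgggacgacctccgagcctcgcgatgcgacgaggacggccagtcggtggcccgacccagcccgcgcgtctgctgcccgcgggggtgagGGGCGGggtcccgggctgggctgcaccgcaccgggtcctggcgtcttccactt
The Usp7 window has 63 CpG dinucleotides, 8 GC boxes, some of them overlapping, and 1 CCAAT box on the reverse strand. The Wdr5 window has 22 CpG dinucleotides and 2 GC boxes just before its nuclear respiratory factor 1 match. The Dpy30 window has 39 CpG dinucleotides and 1 GC box, and its match is near the upstream end. It has the most CpG of the Dpy30 windows. The window at the end of the annotated gene, 74323895 to 74324194, has 1 CpG and no nuclear respiratory factor 1 match. The Usp7 window lies well inside the annotated gene, which ends at 8792308. Which starts these cells use was not tested.

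Other subunits of the H3K4 methyltransferase complexes moved both ways, as did all tested genes, of which 39.7% were lower and 37.3% higher. This list had 12 tested genes. Of them 6 fell, 5 rose and 1 missed the threshold, and their median log2 fold change was -0.06. Bod1l, a SET1 complex associated protein, fell to 1.71 ± 0.0912 FPKM in BACH1-KO, against 6.31 ± 0.278 FPKM in WT (log2 fold change -1.43, SD and n = 3 for the levels). Ncoa6 and Paxip1, subunits of the KMT2C and KMT2D complexes, fell to 6.99 ± 0.208 and 7.72 ± 0.242 FPKM in BACH1-KO, against 11.3 ± 0.809 and 10.6 ± 0.265 FPKM in WT. Kmt2c, the paralog of Kmt2d and named after its values were seen, fell to 1.78, 1.82 and 1.96 FPKM in the BACH1-KO libraries, against 3.43, 3.02 and 3.30 FPKM in the WT libraries. Its BACH1-KO mean was 57.0% of WT, beside 76.5% for Kmt2d, and this difference between the genes was not tested.

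Wdr82, a SET1 complex subunit of the same list, rose to 45.6 ± 0.864 FPKM in BACH1-KO, against 38.9 ± 0.607 FPKM in WT. Bod1, a paralog of Bod1l, rose to 114 ± 4.35 FPKM in BACH1-KO, against 94.6 ± 3.30 FPKM in WT. Kdm6a, the H3K27 demethylase of the KMT2C and KMT2D complexes, rose to 11.8 ± 0.295 FPKM in BACH1-KO, against 9.84 ± 0.152 FPKM in WT. Setd1b, named after its values were seen, was under the filter, with 1.00, 1.16 and 0.948 FPKM in the BACH1-KO libraries and 1.31, 0.790 and 0.777 FPKM in the WT libraries, which overlap.

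WDR5 also serves the NSL acetyltransferase complex, and all 7 tested genes of the list of NSL subunits and RUVBL helicases fell (median log2 fold change -0.67). Of all tested genes, 39.7% fell. Ruvbl1 and Ruvbl2, the AAA+ helicases found with KMT2A and with several chromatin remodellers, fell to 109 ± 2.51 and 124 ± 2.29 FPKM in BACH1-KO, against 200 ± 6.12 and 235 ± 6.43 FPKM in WT. Mcrs1 fell to 43.2 ± 2.37 FPKM in BACH1-KO, against 71.6 ± 2.38 FPKM in WT. Kansl1, an NSL scaffold gene named after its values were seen, was at the edge of the threshold, with 14.2 ± 0.233 FPKM in BACH1-KO and 15.7 ± 0.941 FPKM in WT (limma adjusted p = 0.0497). Tested against a fold change of 1.5, 2 of the 7 passed, where 8.16% of all tested genes passed as lower.

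The list written for H3K4 methyltransferases outside COMPASS had 1 lower, 3 higher and 2 not past of 6 tested (median log2 fold change 0.20). Among all tested genes 39.7% were lower and 37.3% higher. It takes in Ash1l and Kmt2e, and activity on H3K4 was not checked for each gene. Setmar, a methyltransferase fused to a transposase in human, rose to 7.17 ± 0.653 FPKM in BACH1-KO, against 2.61 ± 0.212 FPKM in WT. Setd7, which places a single methyl group, rose to 4.72 ± 0.385 FPKM in BACH1-KO, against 1.84 ± 0.168 FPKM in WT. Ash1l, a trithorax group gene, fell to 1.26 ± 0.174 FPKM in BACH1-KO, against 2.17 ± 0.156 FPKM in WT.

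On the removal side, 6 of 10 tested demethylase and corepressor genes fell and 3 rose (median log2 fold change -0.13). The shares of all tested genes, 39.7% lower and 37.3% higher, stand beside this list and the readers below. Kdm5c fell to 8.85 ± 0.142 FPKM in BACH1-KO, against 13.0 ± 0.569 FPKM in WT, while its paralog Kdm5b rose to 62.2 ± 1.75 FPKM in BACH1-KO, against 51.4 ± 0.590 FPKM in WT. Rcor1, a scaffold of the KDM1A complex, fell to 4.17 ± 0.242 FPKM in BACH1-KO, against 7.59 ± 0.780 FPKM in WT. Of 18 tested genes of the reader list 13 fell, 3 rose and 2 did not pass (median log2 fold change -0.30). The list also holds Cxxc5, Kdm2a and Kdm2b, which are among those that fell, and reading of H3K4 methylation was not checked for each gene. Dido1 fell to 8.60 ± 0.233 FPKM in BACH1-KO, against 18.4 ± 0.302 FPKM in WT, and Ing3, a subunit of the TIP60 complex, rose to 18.4 ± 0.229 FPKM in BACH1-KO, against 11.2 ± 0.310 FPKM in WT.

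**Figure D4:**
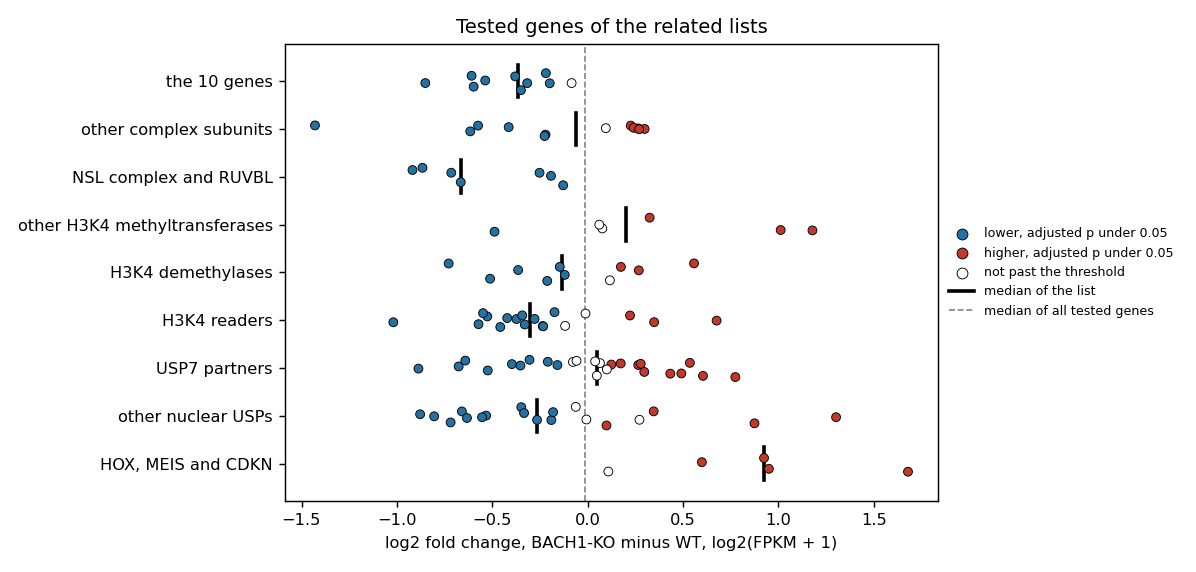
Log2 fold change (BACH1-KO minus WT, log2(FPKM + 1)) of every tested gene of the 10 and of the 8 related lists, coloured by the limma call, with the median of each list. All 7 NSL and RUVBL genes lie below 0, the USP7 partners lie on both sides, and the 5 tested genes of the HOX and MEIS list, which also holds Pbx3 and CDKN genes, lie above 0.

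Of 25 tested regulators, partners and substrates of USP7, 9 fell, 10 rose and 6 did not pass, with a median log2 fold change of 0.05. These counts are near the shares of all tested genes, 39.7% lower and 37.3% higher. Mdm4, an MDM2 relative, fell to 20.7 ± 0.535 FPKM in BACH1-KO, against 39.2 ± 3.68 FPKM in WT. Mdm2 itself, the p53 ubiquitin ligase and named after its values were seen, rose to 57.8 ± 0.632 FPKM in BACH1-KO, against 47.9 ± 0.677 FPKM in WT. Rnf168, a ubiquitin ligase of the DNA damage response, rose to 16.0 ± 0.458 FPKM in BACH1-KO, against 8.98 ± 0.714 FPKM in WT, and Bcor, a corepressor of the PRC1 complex, rose to 6.67 ± 0.264 FPKM in BACH1-KO, against 4.05 ± 0.294 FPKM in WT. Nek2, a centrosomal kinase, fell to 31.3 ± 1.33 FPKM in BACH1-KO, against 50.6 ± 2.30 FPKM in WT.

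Of 19 tested nuclear ubiquitin proteases other than Usp7, 12 fell, 4 rose and 3 did not pass (median log2 fold change -0.26). Among all tested genes 39.7% fell and 37.3% rose. Usp9x fell to 15.0 ± 0.208 FPKM in BACH1-KO, against 26.9 ± 0.873 FPKM in WT. Usp48 fell to 24.8 ± 0.592 FPKM in BACH1-KO, against 41.4 ± 1.12 FPKM in WT. Usp11 rose to 49.9 ± 1.59 FPKM in BACH1-KO, against 19.6 ± 0.770 FPKM in WT.

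HOX and MEIS genes are textbook targets of KMT2A and menin, and were mostly too low to test. The list also holds Pbx3, Cdkn1b and Cdkn2c. Of 41 listed genes in the table, 5 passed the filter, of which 4 rose and 0 fell, where 37.3% of all tested genes rose. Meis2 rose to 3.62 ± 0.104 FPKM in BACH1-KO, against 1.44 ± 0.201 FPKM in WT. Cdkn1b, a cyclin-dependent kinase inhibitor, rose to 31.3 ± 1.85 FPKM in BACH1-KO, against 15.7 ± 0.954 FPKM in WT. Of the 41, 1 was listed at 0 in every BACH1-KO library and 12 in every WT library. Levels near 0 were generally higher in BACH1-KO: the 5182 genes with a mean under 0.5 FPKM had library medians of 0.0978 to 0.0990 FPKM in BACH1-KO and 0.0217 to 0.0253 FPKM in WT, and their part in the HOX values was not tested.

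The direction of change varied with the length of the encoded protein over the whole table. Among 254 tested genes whose longest protein in GENCODE has 2000 residues or more, 66.9% fell and the median log2 fold change was -0.37. The 6380 genes under 500 residues had 35.0% lower and a median of 0.05. Kmt2a, Kmt2b and Kmt2d belong to the longest class, and their log2 fold changes of -0.08, -0.20 and -0.22 with a pseudocount of 1 lay above its median. For Kmt2d, a low gene, the value was -0.36 with a pseudocount of 0.1 and -0.51 after quantile normalization. The class medians were not recomputed in these settings, so the place of Kmt2d in its class is uncertain. Usp7 and Setd1a, in the class from 1000 to under 2000 residues (median -0.21), lay below its lower quartile of -0.50. In the class from 500 to under 1000 residues, with a lower quartile of -0.384, Ash2l lay below it, Rbbp5 (-0.380) just above it, and Men1 (-0.32) between it and the median of -0.05. Dpy30 and Wdr5 lay below the lower quartile of -0.31 for proteins under 500 residues. Length was compared as a description, and its part in the changes of the 10 genes was not tested.

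**Figure D5:**
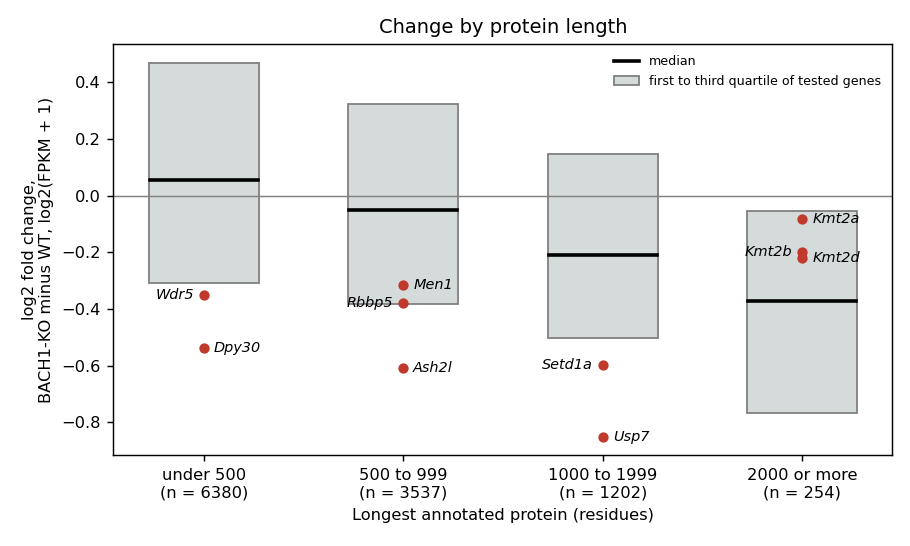
Log2 fold change (BACH1-KO minus WT, log2(FPKM + 1)) by class of protein length, with the median and quartiles of tested genes in each class and the 10 genes as red points. Medians run from 0.05 for proteins under 500 residues to -0.37 for 2000 residues or more. Kmt2a, Kmt2b and Kmt2d lie above the median of their class on this scale, where low genes such as Kmt2d appear to change less.

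The level of expression also went with direction. Genes with a mean of 100 FPKM or more, among them Dpy30 and Ash2l, were lower in 57.6% of 1051 cases. From 20 to 100 FPKM, the class of Usp7, Wdr5, Rbbp5 and Men1, 49.2% of 3313 were lower. From 5 to 20 FPKM, the class of Setd1a and Kmt2b, 38.1% of 4249 were lower. Genes from 1 to 5 FPKM, among them Kmt2a and Kmt2d, were lower in 27.4% of 3574 cases. From the highest class to the lowest, the median log2 fold change was -0.20, -0.10, 0.004 and 0.16.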

How the data were processed

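RNA was sequenced from 3 BACH1-KO and 3 WT samples of E14Tg2A cells. The authors deposited 1 table of FPKM with a row for each gene symbol. Cufflinks and mm10 appear in the submitters' processing notes. For aligner, annotation and versions: not given in the sources used here. Read depth is unknown, so count tests were not used. Columns name a genotype and a number but match no single title, so pairing by number was tried only as an alternative. The 23 rows with a number in place of a symbol (0.0987% of summed FPKM) were left out.

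Log2(FPKM + 1) was fitted over all genes averaging 1 FPKM or more with limma 3.58.1 in R 4.3.3 (eBayes with trend, Benjamini-Hochberg adjustment, threshold 0.05). The fit was also tested on simulated data in which few genes changed. Here 77% of tested genes were called, a setting which that simulation does not cover. Positions, overlaps and coding lengths came from GENCODE vM21 (mm10), promoters from RefSeq. A coding length was found for 93.3% of tested genes. No protein table was used, so lengths replaced the planned protein comparison.

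The members and lists were chosen with earlier results of these data known. Named were the 10 genes, Bach1, up to 3 called genes per list and direction with the smallest adjusted p, and the 3 nearest profiles of the 2 members that changed most; 1 gene the rule names is not reported here. Alternatives covered the pseudocount, filter, scaling, prior variance, a fold change of 1.5 and each library left out.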

Additional observations from a re-analysis of the deposited data

How the results depend on the processing

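The columns are numbered 1 to 3 in each genotype, but nothing ties a number to a shared batch or day, and deviations of same-numbered columns from their group means correlated at -0.06, -0.26 and 0.05. With the column number as a replicate block, added after seeing the data, 8 of the 10 genes were called lower, 4759 genes were lower and 4481 higher in the whole table, and Kmt2d lost its call (adjusted p = 0.0595). All 10 log2 fold changes stayed negative in the 138 repeats without the block. Of these, 118 kept their side of the threshold, 19 lost the call and 1 gained it. Setd1a, Wdr5, Ash2l, Rbbp5, Dpy30, Men1 and Usp7 kept their call under all alternatives that test against no change. Kmt2a and Kmt2d could not be tested with a filter at 5 FPKM. Tested against a fold change of 1.5, 1 of the 10 genes passed, with 994 lower and 1325 higher genes overall. That test left 1 of the other complex subunits, 2 NSL and RUVBL genes, 2 other methyltransferases, 0 demethylase genes, 1 reader, 2 USP7 partners and 5 nuclear proteases. The 0 comes from limma's treat, where the plain limma test called 9 of 10. At a filter of 5 FPKM, 3862 genes were lower and 2942 higher among 8613 tested. There 1 of 2 tested other methyltransferases was called, and 2 of 2 tested HOX list genes. With no filter 19 of 41 HOX list genes were called in either direction, where 5075 genes were lower and 6580 higher among 18518. With equal summed FPKM, chosen after seeing the data, the WRAD sum was 72.5% of WT. No scaling moved the median of all genes by more than 0.1 on the log2 scale. Depth is unknown, and the spread between 3 libraries limits Kmt2a, Kmt2b and Kmt2d.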

Other observations

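Within 100 kb of the 10 loci, 61 other tested genes were found, of which 22 were lower, 20 higher and 19 not past the threshold, near the 39.7% lower and 37.3% higher among all tested genes. Beside Usp7, 0 of 5 tested neighbours were lower and 4 were higher, among them Pmm2, a phosphomannomutase gene (log2 fold change 2.19), Tmem186 (0.76) and Abat (0.70). Beside Dpy30, 0 of 3 were lower, and Memo1 was higher (log2 fold change 0.70). These neighbours were named after their values were seen.

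The tested genes whose centred log2(FPKM + 1) profiles over the 6 libraries lay nearest to Usp7 were Tgm3, Plec and Tnfaip8, at Euclidean distances of 0.0423, 0.0583 and 0.0757. Nearest to Ash2l were Luc7l2, Hipk1 and Ezr, at 0.0233, 0.0326 and 0.0329. The 6 libraries carry mainly the difference between genotypes, so nearness in this measure largely restates a like fold change.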
